A study of Rattus norvegicus with 24 samples.

Results

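Ephx2, Ptges, Pla2g2d and Ptgfr are genes of eicosanoid metabolism and prostanoid signalling, and they make up 4 of the 32623 genes counted in rat carotid bodies (CBs). They were selected on the strain comparison of the same libraries: each is listed among the genes higher in the spontaneously hypertensive (SH) rat, by the identifiers ENSRNOG00000017286, ENSRNOG00000006320, ENSRNOG00000016826 and ENSRNOG00000046468, in that order. Their difference between strains is therefore given as a description with no test, and tests are kept to what did not choose them, the side of the CB and its interplay with strain. The CBs are small organs beside the carotid arteries that sense blood oxygen, carbon dioxide and acidity. Polyadenylated RNA was sequenced from the left and the right CB of 6 WKY/NHsd rats, the normotensive strain, and of 6 SHR/NHsd rats, all male, with no treatment labelled, perfused with cold PBS and 12 to 14 weeks old. The sources used here do not say that littermates or batches were shared, and both strains are inbred, so a rat is a replicate within one genotype.

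Eicosanoids are signalling lipids made from arachidonic acid and related fatty acids of the membrane. Phospholipases A2, such as the secreted enzyme encoded by Pla2g2d, release the fatty acid, cyclooxygenases turn it into prostaglandin H2, and terminal synthases such as the microsomal prostaglandin E synthase encoded by Ptges make the final prostanoids, which act on G protein-coupled receptors such as the prostaglandin F receptor encoded by Ptgfr. In a parallel branch, cytochrome P450 enzymes make epoxides of arachidonic acid, which relax many blood vessels, and the soluble epoxide hydrolase encoded by Ephx2 converts these epoxides to diols that are less active.

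The left and right CBs gave 24 libraries with 9198341 to 13655419 counts each. The right CB of SHR rat 34 stood apart and was left out, as in the table of the study that names the genes, so 12 WKY and 11 SHR libraries were compared. In that library the summed level of the 3 glomus cell genes with an identifier (Dbh, Chga and Chgb, of the chemosensory cells themselves) was 60.0 CPM, against 896 to 1345 CPM in WKY and 1099 to 1938 CPM in the other SHR libraries, and Tg, the thyroglobulin gene of the thyroid, reached 7849 CPM. In the 23 libraries compared, Tg was at most 28.9 CPM except in the right CB of SHR rat 30, where it was 215 CPM. Each of the 23 thus held the glomus cell genes of its labelled tissue at high levels. CPM is the count of a gene relative to the size of its library, here scaled by the trimmed mean of M-values (TMM).

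The promoters of the members are shown because the genes were higher in the same strain. They span 250 bases before to 50 bases after the start of the gene in the RefSeq annotation of GRCr8, whose reference strain is neither WKY nor SHR, and are written along the strand of the gene. Ptges lies on the minus strand (chr3:34586938-34587237), Pla2g2d on the plus strand (chr5:156299382-156299681) and Ptgfr on the minus strand (chr2:243425574-243425873), and 3 of the 4 members were matched by symbol, all but Ephx2. Capitals mark matches to GGGCGG (GC box), CCAAT or CACGTG (a palindromic E-box), searched on both strands.
Ptges: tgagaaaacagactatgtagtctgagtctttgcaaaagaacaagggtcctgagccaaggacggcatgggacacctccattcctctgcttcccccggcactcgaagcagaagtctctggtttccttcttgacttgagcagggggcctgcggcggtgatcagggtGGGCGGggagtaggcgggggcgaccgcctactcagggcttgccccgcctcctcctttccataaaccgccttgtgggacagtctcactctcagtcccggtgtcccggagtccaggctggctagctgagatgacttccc
Pla2g2d: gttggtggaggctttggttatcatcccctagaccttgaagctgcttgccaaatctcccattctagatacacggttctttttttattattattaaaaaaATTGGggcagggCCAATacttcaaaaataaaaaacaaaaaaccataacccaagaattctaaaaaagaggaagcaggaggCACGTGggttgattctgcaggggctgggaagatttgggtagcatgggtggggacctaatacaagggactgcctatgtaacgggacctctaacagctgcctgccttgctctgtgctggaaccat
Ptgfr: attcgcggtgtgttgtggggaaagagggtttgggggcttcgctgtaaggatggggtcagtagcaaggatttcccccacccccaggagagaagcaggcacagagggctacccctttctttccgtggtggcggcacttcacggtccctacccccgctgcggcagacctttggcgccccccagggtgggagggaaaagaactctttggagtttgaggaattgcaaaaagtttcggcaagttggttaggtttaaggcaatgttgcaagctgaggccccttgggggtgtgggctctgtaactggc
The Ptges window held 1 GC box, a motif present in 33.1% of the 33469 promoters of the same length, and had a GC content of 59.7% against a median of 51.7% over all of them. The Pla2g2d window held 2 CCAAT matches, 1 on each strand (37.5% of promoters hold at least 1), and 1 CACGTG match (6.42% of promoters), which also contains both matches to the hypoxia-inducible factor core ACGTG (19.3%), and its GC content was 44.7%. The Ptgfr window, with a GC content of 57.7%, had none of these letters. TATAAA (14.2% of promoters), GCGTG (29.7%) and the AP-1 letters TGANTCA (7.33%) were in none of the 3 windows. The windows thus shared none of the 7 motifs searched.

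Ephx2, the soluble epoxide hydrolase gene, was higher in every SHR library than in any WKY library. In WKY rats the left CBs had 5.65, 1.92, 2.24, 3.49, 3.91 and 3.99 CPM and the right CBs 4.76, 3.37, 4.85, 5.95, 4.58 and 3.12 CPM (rats 32, 33, 34, 36, 37 and 41). In SHR the left CBs had 28.0, 28.4, 25.1, 23.9, 28.1 and 23.7 CPM (rats 30, 31, 33, 36, 37 and 34) and the right CBs 25.7, 25.9, 24.0, 27.3 and 25.7 CPM (the first 5 of these rats). The lowest SHR library, the left CB of rat 34, was 3.98 times the highest WKY library, the right CB of rat 36. As means over rats, with the sides of a rat averaged and SHR rat 34 given by its left CB alone, Ephx2 averaged 3.99 ± 0.925 CPM over the WKY rats and 25.8 ± 1.43 CPM over the SHR rats (SD, n = 6 and 6), a ratio of 6.47. The log2 fold change, SHR minus WKY, was 2.71 with a standard error of 0.12.

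Ephx2 also varied little among the SHR libraries. Its coefficient of variation over the 11 SHR libraries was 6.71%, close to the 6.08% that counting alone would give at the mean of 271 counts. Over the 12 WKY libraries, at a mean of 40.0 counts, it was 31.2% against 15.8% from counting. Rats of the WKY strain ran from 2.64 to 5.21 CPM and those of SHR from 23.7 to 27.1 CPM. The raw counts behind these values were 19 to 56 in WKY and 212 to 356 in SHR.

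Pla2g2d, a secreted phospholipase A2 gene that is best known from lymphoid tissue, had a higher mean in SHR with overlapping libraries. WKY rats 32, 33, 34, 36, 37 and 41 had 0.706, 0.909, 1.27, 0.0970, 0.514 and 0.621 CPM in the left CB and 0.695, 0.632, 1.86, 2.09, 0.390 and 0.535 CPM in the right CB. SHR rats 30, 31, 33, 36, 37 and 34 had 1.88, 3.05, 2.40, 0.844, 3.53 and 1.34 CPM in the left CB, and the first 5 had 1.90, 1.16, 1.79, 1.99 and 2.69 CPM in the right CB. Of the 12 WKY libraries, 8 were below every SHR library, the right CBs of WKY rats 34 and 36 were the highest of the other 4, and only 4 of the 11 SHR libraries were above every WKY library. The WKY rats averaged 0.860 ± 0.407 CPM and the SHR rats 1.99 ± 0.639 CPM (SD, 6 rats per strain), a ratio of 2.32, and the log2 fold change was 1.28 with a standard error of 0.32. In 4 of the 6 SHR rats the mean of the sides was above that of every WKY rat. These values rest on 1 to 19 counts per library in WKY and 8 to 44 in SHR.

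Ptges, the gene of an inducible prostaglandin E synthase that works with cyclooxygenase-2, was the member with the fewest counts, 1 to 15 per library in WKY and 8 to 25 in SHR. The WKY left CBs had 0.404, 0.101, 0.976, 0.970, 0.411 and 0.355 CPM and the right CBs 1.49, 0.316, 1.03, 0.110, 0.0975 and 0.982 CPM, in the order of rats used above. The SHR left CBs had 1.04, 0.841, 1.75, 2.11, 2.01 and 2.12 CPM and the right CBs 1.20, 1.31, 2.06, 1.99 and 1.51 CPM. In 7 of the 11 SHR libraries Ptges was above every WKY library, and 7 of the 12 WKY libraries were below every SHR library. The right CB of WKY rat 32 was the highest of the 5 that overlapped. Averaged by rat, the strains did not overlap, with 0.208 to 1.004 CPM in WKY and 1.07 to 2.12 CPM in SHR, but the gap between rats was narrow. The means were 0.603 ± 0.336 CPM and 1.67 ± 0.462 CPM (SD, n = 6 each), a ratio of 2.77, and the log2 fold change was 1.42 with a standard error of 0.34. Counting alone would give a coefficient of variation of 40.3% among WKY libraries and 24.3% among SHR libraries, against 76.7% and 28.8% measured.

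Ptgfr, the receptor gene for prostaglandin F2α, a prostanoid that constricts smooth muscle, was higher in SHR as a mean and spread widely within it. The WKY left CBs had 7.06, 3.23, 4.49, 3.59, 2.98 and 5.86 CPM and the right CBs 2.08, 3.05, 8.15, 5.29, 4.68 and 4.997 CPM. The SHR left CBs had 14.3, 10.8, 15.6, 4.33, 9.63 and 6.37 CPM and the right CBs 13.1, 7.49, 15.3, 11.4 and 11.1 CPM. SHR rat 33 was high and SHR rat 34 low, and the left CB of SHR rat 36, at 4.33 CPM, was within the WKY range while its right CB was not. In 8 of the 11 SHR libraries Ptgfr was above every WKY library. The mean over WKY rats was 4.62 ± 1.13 CPM and that over SHR rats 10.5 ± 3.48 CPM (SD, 6 rats per strain), a ratio of 2.27, and the log2 fold change was 1.23 with a standard error of 0.21. By rat the strains were just apart, with WKY up to 6.32 CPM and SHR from 6.37 CPM. That lowest SHR value is of rat 34, given by its left CB alone. Its left-out right CB was at 2.23 CPM, scaled over all 24 libraries, so the gap depends on leaving that CB out. Unlike Ephx2, whose SHR spread was close to that of counting, Ptgfr varied by 33.8% over the SHR libraries where counting would give 9.40%.

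**Figure D1:**
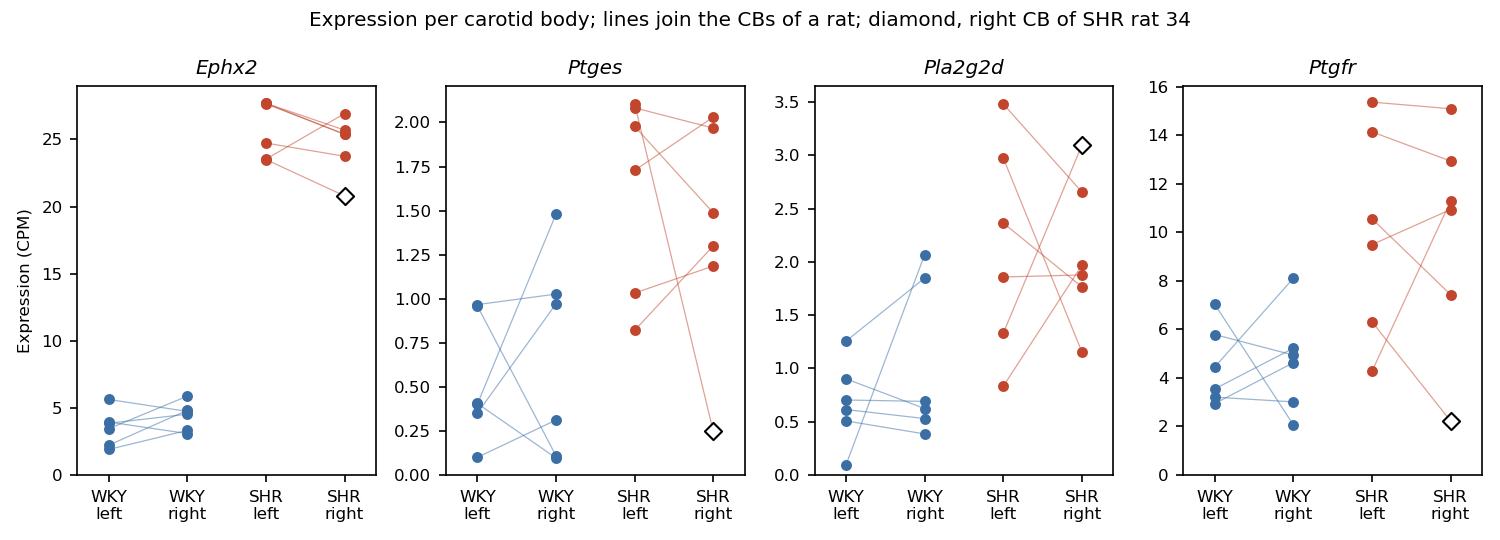
Expression of Ephx2, Ptges, Pla2g2d and Ptgfr in CPM (vertical axes, linear from 0, scaled over all 24 libraries) in each left and right CB of WKY (blue) and SHR (red) rats, with lines joining the CBs of a rat and an open diamond for the right CB of SHR rat 34, which was left out of the comparisons. Only for Ephx2 is there a gap between the strains in every library; the diamond lies at 20.8 CPM for Ephx2 and at 0.248 CPM for Ptges.

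All 4 members had an adjusted p under 0.05 and were higher in SHR in edgeR, which the choice of members fixes, where 10.2% of the 14258 genes tested did. This fit takes both CBs of a rat as separate samples. With counts summed per rat, 1013 of 15130 genes tested were called higher in SHR, the members among them. The strains did not overlap by rat for 3 of the 4 members, against 3.39% of genes tested, and by library for Ephx2 alone, against 0.926%. These shares stand beside the counts as background and nothing is read from them. In the left CBs alone the log2 fold changes were 2.88 ± 0.19 for Ephx2, 1.66 ± 0.44 for Pla2g2d, 1.59 ± 0.44 for Ptges and 1.16 ± 0.30 for Ptgfr (± SE, n = 6 each). In the right CBs alone (6 WKY and 5 SHR) they were 2.53 ± 0.14, 0.88 ± 0.42, 1.22 ± 0.50 and 1.30 ± 0.28 in that order, and Pla2g2d and Ptges were not past the threshold there. Such calls describe the selecting comparison in fewer samples and test no difference between sides. With each rat left out in turn, Ephx2 stayed between 2.62 and 2.81, Ptges between 1.24 and 1.61, Pla2g2d between 1.10 and 1.53 and Ptgfr between 1.09 and 1.34. Without SHR rat 30, which held the library with Tg at 215 CPM, the values were 2.70, 1.51, 1.30 and 1.14 in that order, and with the left-out library added they were 2.68, 1.31, 1.32 and 1.13.

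The side of the CB was not used to select the members, and none of them differed between left and right beyond the spread between libraries. Over both strains the log2 fold changes, left minus right, were -0.12 ± 0.12 for Ephx2, -0.13 ± 0.32 for Pla2g2d, -0.12 ± 0.34 for Ptges and -0.13 ± 0.21 for Ptgfr (± SE, edgeR quasi-likelihood test with strain as a covariate, adjusted p 0.958, 0.980, 0.986 and 0.973). The standard errors leave room for a sizeable difference in Ptges and Pla2g2d, the members with few counts. Over both strains these members passed the mean count above 10 that the test required only through SHR. Their mean normalized counts were 17.0 and 21.4 in SHR and 6.10 and 8.68 in WKY, so no conclusion is drawn from this test for them. Over all genes 0 of 14258 (0%) passed, with 702 at an unadjusted p under 0.05 and 0 by the DESeq2 test. Taking each rat as its own control, the mean of left minus right in log2(CPM + 0.5) over the 11 rats with both CBs was -0.16 ± 0.43 for Ephx2 (SD, two-sided exact sign-flip permutation p = 0.247, left higher in 6 of 11 rats). It was -0.09 ± 0.83 for Pla2g2d (exact permutation p = 0.749, left higher in 7 rats), -0.08 ± 0.66 for Ptges (exact permutation p = 0.683, left higher in 4 rats) and -0.08 ± 0.75 for Ptgfr (exact permutation p = 0.731, left higher in 6 rats). The smallest p that 11 rats allow is 0.000977, and these 4 p-values are not adjusted.

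Single rats differed between their CBs, in either direction. Pla2g2d in WKY rat 36 had 1 count in the left CB and 19 in the right, a left-minus-right difference of -2.12 in log2(CPM + 0.5), and without this rat the side difference of Pla2g2d over both strains changed sign, to 0.12 (adjusted p 0.999, edgeR). For Ptgfr the extremes were WKY rat 32 at 1.55 and SHR rat 36 at -1.31. For Ephx2 the differences ran from -0.96 to 0.31 in WKY and from -0.19 to 0.13 in SHR, and the left CB was higher in 2 of 6 WKY rats and 4 of 5 SHR rats.

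Within WKY alone, left minus right was -0.32 ± 0.25 for Ephx2 and -0.05 ± 0.30 for Ptgfr (± SE, edgeR adjusted p 0.9997 for both), and Ptges and Pla2g2d fell below the mean count of 10 that the test required. Within SHR alone it was 0.03 ± 0.10 for Ephx2, 0.22 ± 0.36 for Pla2g2d, 0.04 ± 0.33 for Ptges and -0.19 ± 0.28 for Ptgfr (± SE, edgeR adjusted p 0.976, 0.946, 0.993 and 0.939). Of all genes, 0 of 14238 (0%) passed in WKY, with 284 at an unadjusted p under 0.05, and 0 of 14200 (0%) in SHR, with 781, and DESeq2 also called 0 in each. With the rat as a replicate block, 1 gene passed in SHR, and it was not a member.

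No member passed the threshold for a strain difference of another size in left than in right CBs. The standard errors leave room for one, and the estimates of Ephx2 and Pla2g2d were larger than theirs. The interaction, the log2 strain difference in left CBs minus that in right CBs, was 0.35 ± 0.24 for Ephx2, 0.78 ± 0.64 for Pla2g2d, 0.37 ± 0.69 for Ptges and -0.14 ± 0.43 for Ptgfr (± SE, edgeR adjusted p 0.999 for each). Pla2g2d and Ptges entered this test only through their counts in SHR, so no conclusion is drawn from it for them. None was past the threshold, and neither was any of the 14258 genes (0%), with 438 at an unadjusted p under 0.05 and 0 by DESeq2. In the order of the 4 groups, both SHR means were above both WKY means for each member, and the left and right means of one strain differed by less than their spread. For Ephx2 these means were 3.53 ± 1.35 CPM in left and 4.44 ± 1.04 CPM in right WKY CBs and 26.2 ± 2.22 CPM in left and 25.7 ± 1.15 CPM in right SHR CBs (SD, n = 6, 6, 6 and 5). For Pla2g2d they were 0.686 ± 0.393, 1.03 ± 0.741, 2.17 ± 1.02 and 1.91 ± 0.546 CPM in the same order. For Ptges they were 0.536 ± 0.357, 0.671 ± 0.577, 1.65 ± 0.565 and 1.61 ± 0.392 CPM, and for Ptgfr 4.53 ± 1.62, 4.71 ± 2.09, 10.2 ± 4.37 and 11.7 ± 2.87 CPM.

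**Figure D2:**
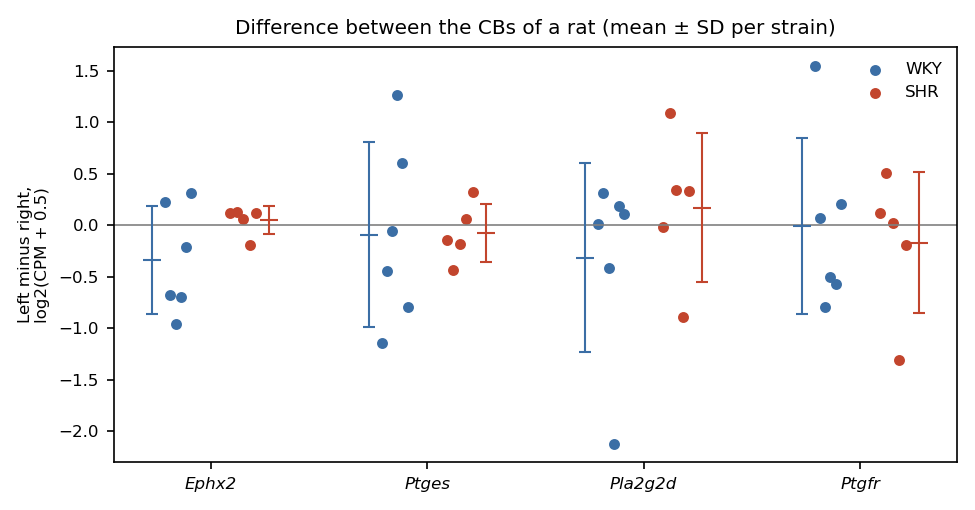
Left minus right difference in log2(CPM + 0.5) (vertical axis) for each member in each rat with both CBs, 6 WKY (blue) and 5 SHR (red), with the mean and SD of each strain beside the points. The points of every member lie on both sides of 0, and those of Ephx2 in SHR lie between -0.19 and 0.13.

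Whether rats high for a member were also high for another could not be settled with 6 rats per strain, which leave room for strong relations. Over the 6 rats of a strain, the 12 relations between pairs of members had Pearson's r from -0.775, for Ephx2 with Ptges in SHR (exact permutation p = 0.0819; Spearman's rho -0.886, exact permutation p = 0.0333), to 0.769, for Ptges with Ptgfr in WKY (exact permutation p = 0.0792; rho 0.829, exact permutation p = 0.0583). After Benjamini-Hochberg adjustment over the 12 relations the lowest exact permutation p was 0.492 for r and 0.350 for rho, so none held. Without the 2 rats farthest from the median of the first gene, these values of r were -0.773 and 0.327. Of the 6 pairs, 2 had a positive r in both strains and 0 a negative r in both.

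The genes whose pattern was most like that of each member were found among the 1272 other genes with a symbol, all of them from the list of genes higher in SHR, by Pearson's r of log2(CPM + 0.5) over the 23 libraries once each strain's mean was taken off. These values describe libraries that share rats, sides and depth. For Ptgfr they were Pdlim2, a PDZ and LIM domain gene, at r = 0.788, Mmp2, a matrix metalloproteinase gene, at 0.742 and Lrrc17 at 0.666. The r of Ptgfr with Pdlim2 was 0.833 in WKY and 0.746 in SHR. For Pla2g2d they were Lrrc17 at 0.737, Cfd, the complement factor D gene of adipocytes, at 0.692 and Has3, a hyaluronan synthase gene, at 0.686. Lrrc17 was thus in the list of both, and its r with Pla2g2d was 0.885 in WKY and 0.552 in SHR.

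For Ptges the closest genes were Frat2 at 0.660, the cornea keratin gene Krt12 at 0.590 and Chsy3, a chondroitin sulfate synthase gene, at 0.506, all at 2.68 to 2.79 CPM. For Ephx2 they were Fam131b at 0.615, Cdkl3 at 0.604 and Iqcc at 0.572. These 3 followed Ephx2 in WKY, with r of 0.789, 0.710 and 0.734, and not in SHR, where r was -0.07, 0.18 and -0.10 and Ephx2 itself hardly varied.

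**Figure D3:**
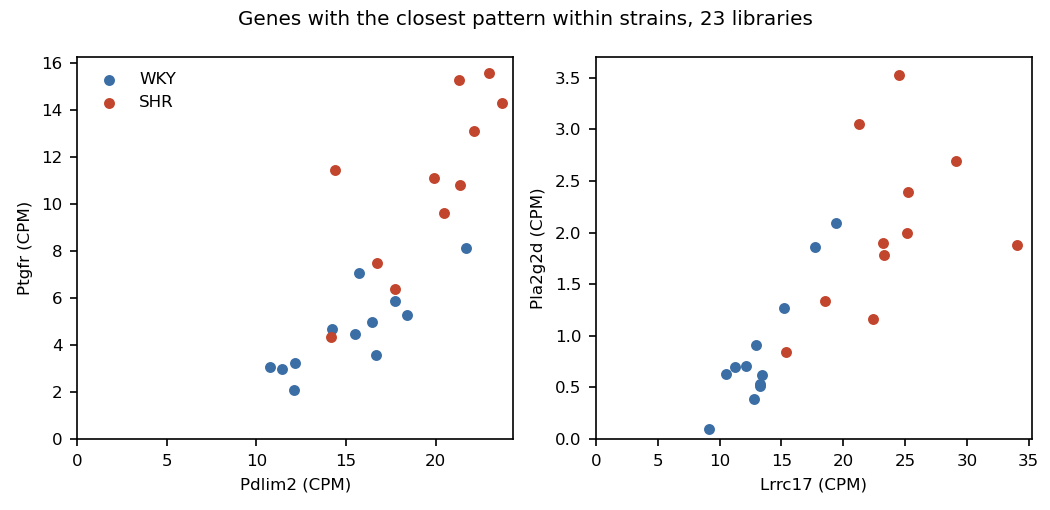
Ptgfr against Pdlim2 (left) and Pla2g2d against Lrrc17 (right), in CPM on linear axes from 0, in the 12 WKY (blue) and 11 SHR (red) libraries. Within each strain the points rise together, with r of 0.833 and 0.746 for Ptgfr with Pdlim2 in WKY and SHR.

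The rest of the eicosanoid pathway was described from a list of 80 genes, of which 15 had an identifier, all of them from the list of genes higher in SHR. The other 65, the cyclooxygenase genes among them, are not analysed here, and no count of genes lower in SHR can be had from this list. Since that list was drawn from the same libraries, their strain differences are a description too, with no p-value. Of the 15, 8 had an adjusted p under 0.05 in edgeR, all higher in SHR, which the list fixes: the 4 members and 4 others. Among all 1273 genes with a symbol, 64.2% were called higher in SHR, so 8 of 15 is no larger a share. The 11 genes that were not members had log2 fold changes of 0.29 to 0.81 with a median of 0.40, each below those of the members. The members were chosen on this same comparison, so their ranks among these genes, here and below, are a description too.

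By role, Pla2g12a, the other phospholipase gene with an identifier, also of a secreted phospholipase A2, averaged 11.1 ± 1.33 CPM over WKY and 15.8 ± 1.62 CPM over SHR rats (SD, 6 per strain), and was 1 of the 4 others. Among the prostanoid synthases, Tbxas1, the thromboxane A synthase gene, was at 4.90 ± 0.617 and 6.41 ± 1.74 CPM in the same order and was not. Among the receptors, Ptgir, which encodes the prostacyclin receptor and was 1 of the 4, was at 15.8 ± 2.76 and 20.6 ± 1.53 CPM, and Tbxa2r, the thromboxane receptor gene, which was not, had a log2 fold change of 0.29 ± 0.12 (SE). Ptgfr thus had the highest fold change of the 3 receptor genes seen.

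In the leukotriene branch, Alox5, the 5-lipoxygenase gene, and Alox5ap, the gene of its activating protein, made up the 4, with log2 fold changes of 0.81 ± 0.25 and 0.48 ± 0.13 (SE), and Cysltr1, a cysteinyl leukotriene receptor gene, had 0.33 ± 0.19. The other epoxide hydrolase gene with an identifier, Ephx3, averaged 5.28 ± 1.55 CPM over WKY and 7.14 ± 2.02 CPM over SHR rats (SD, 6 per strain, log2 fold change 0.49 ± 0.19 SE). The P450 genes Cyp4f37, Cyp4b1 and Cyp4x1 had log2 fold changes of 0.33 to 0.36. Ephx2 was the gene with the highest fold change of the 15.

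**Figure D4:**
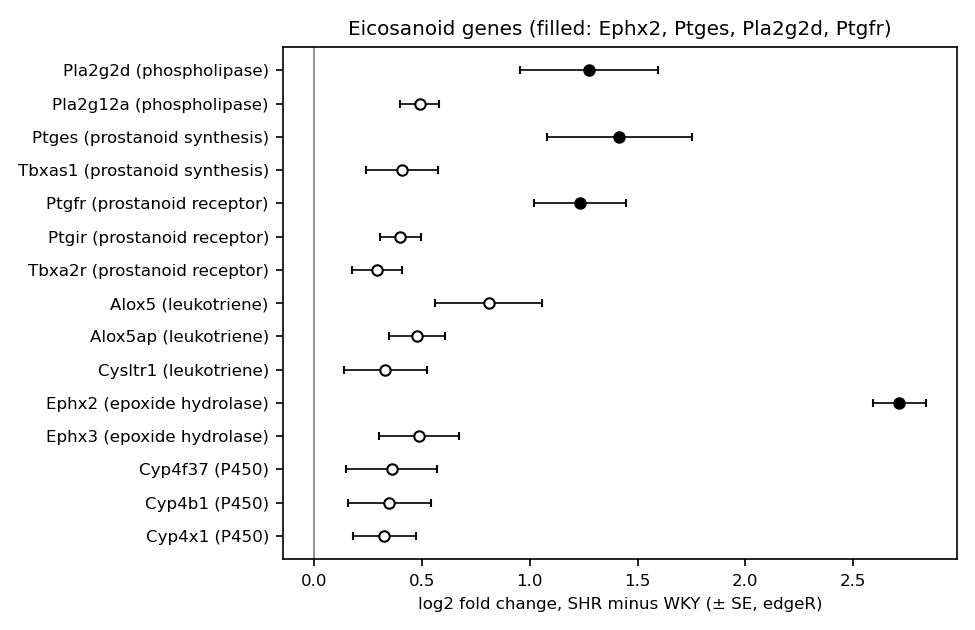
Log2 fold change, SHR minus WKY, with its standard error (horizontal axis, edgeR) for the 15 eicosanoid genes with an identifier, ordered by role, with filled points for the members. The 4 members lie at 1.23 to 2.71, and the 11 other genes at 0.29 to 0.81.

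The cell type markers with an identifier also came from the list of genes higher in SHR, which fixes their direction, and their part in the differences of the members was not tested. Marker genes without an identifier are not analysed here and could differ in either direction. Of those with one, 11 of 12 macrophage genes (17 in the list), 5 of 6 lymphocyte and dendritic cell genes (of 14), both mast cell genes (of 8), 3 of 5 adipocyte genes (of 9) and all 3 glomus cell genes (of 11) passed as higher in SHR, and 0 of 4 smooth muscle genes (of 8), where 64.2% of all genes with a symbol did. The summed level of the macrophage genes was 444 to 750 CPM in WKY and 628 to 976 CPM in SHR, that of the lymphocyte and dendritic cell genes 44.4 to 76.1 and 73.0 to 149 CPM, and that of the mast cell genes 0.384 to 2.03 and 1.33 to 9.03 CPM. The adipocyte genes summed to 55.7 to 96.0 CPM in WKY and 70.3 to 158 CPM in SHR, and the smooth muscle genes to 240 to 862 and 386 to 1103 CPM. No endothelial gene of the list had an identifier. Adipoq, the adiponectin gene, was at 0 in 3 WKY libraries and 1 SHR library, Cpa3 and Cma1, the mast cell protease genes, were each at 0 in 1 WKY library, and no other marker gene with an identifier was at 0 in any of the 23. In such whole organs, fewer cells of a type and less RNA per cell cannot be told apart.

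In the left-out right CB of SHR rat 34, with its glomus cell genes at 60.0 CPM, the members did not move together. Ephx2 was at 20.8 CPM (168 counts), above all 12 WKY libraries and below the 23.5 to 27.7 CPM of the other SHR libraries on the same scale. Pla2g2d was at 3.09 CPM (25 counts), above all 12 WKY and 10 of the 11 other SHR libraries. Ptgfr was at 2.23 CPM (18 counts), below the 11 other SHR libraries and above 1 WKY library, and Ptges was at 0.248 CPM (2 counts), below the 11 other SHR libraries. The adipocyte genes summed to 518 CPM in this library, mostly Fabp4 at 385 and Cd36 at 83.7 CPM. Adipoq, at 6.31 CPM, was also above its means in WKY and the other SHR libraries (0.720 and 1.86 CPM). Lpl at 41.6 CPM (means 43.2 and 55.1 CPM) and Cfd at 1.11 CPM (means 1.41 and 2.75 CPM) were below theirs. The macrophage genes summed to 577 CPM, of which Lyz2 made up 406 CPM. Being a single library, it allows no test, and these values are those of one sample. How many of all genes lay above every WKY library in it was not counted.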

How the data were processed

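Polyadenylated RNA from left and right CBs of 6 WKY and 6 SHR rats was sequenced with a stranded paired-end kit. The authors mapped the reads with STAR, assigned them to genes with featureCounts and deposited the raw counts, not normalized, by Ensembl identifier. Per the submitters' processing notes FastQC and DESeq2 were also used. Versions, genome build, annotation and how featureCounts treated strand and reads with several matches are not given in the sources used here. All columns were assigned by the code in the labels, and none was left over. Gene symbols were taken from the identifiers paired with them in the part of the study's first data set read here (1391 rows, 1273 pairs), and the columns of fold changes and p-values there were not used. The promoters come from the RefSeq table of GRCr8.

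The members, gene lists and tests were chosen with earlier results of these data known. Genes named are the 4 members, the eicosanoid list and, for each member, the 3 genes most alike by correlation within strains.

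Counts were tested in R 4.3.3 with edgeR 4.0.16 (TMM, robust quasi-likelihood F-test, Benjamini-Hochberg adjustment at 0.05) on genes whose normalized count averaged above 10, with side or strain as covariate. The depth was 9198341 to 13655419 counts per library (median 9795388), so 10 counts are about 1 CPM, and genes such as Ptges are limited by counting. Alternatives were DESeq2 1.42.0 (its size factors, and its test), limma 3.58.1 (voom, correlated within rats), no filter, all 24 libraries, each side alone, counts summed per rat, no side covariate, a replicate block, other pseudocounts, and each rat left out. The procedures were run on simulated counts with known changes. These had the same set spread between libraries for every gene and no effect shared by the CBs of a rat. They therefore do not show how the tests perform for the members. Exact permutation tests were made with scipy 1.17.1, and matplotlib 3.10.9 and pandas 2.3.3 served for plots and tables.

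The left and right CB of one number come from one rat by the titles of the samples, and the pairing rests on these titles. The correlation of their deviations from the group means had a median of 0.115 over 11 rats (-0.0357 to 0.283). It was not compared with that of left and right CBs of different rats, so it does not settle the pairing. Rats of both strains that share a number are different rats by their titles and were not taken as pairs. The same correlation between them was -0.342 to 0.0708 over 4 numbers. Any 2 libraries differed by more than sampling noise (lowest chi-square per degree of freedom 4.97 over 276 pairs).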

Additional observations from a re-analysis of the deposited data

Results flagged for a closer look

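In the right CB of SHR rat 34, the library left out of the comparisons, Ephx2 was at 20.8 CPM and Pla2g2d at 3.09 CPM. Both were above every WKY library on the same scale (at most 5.88 and 2.07 CPM), and were flagged as values outside the main comparison. Ptgfr at 2.23 and Ptges at 0.248 CPM were not (WKY up to 8.11 and 1.48 CPM). The share of all genes above every WKY library there was not counted. The members were chosen as higher in SHR, so nothing is read from these values. Glomus cell genes were at 60.0 CPM in that library and Tg at 7849 CPM, and the part of its tissue in these values was not tested. Of 24 groups of Ephx2, Ptges, Pla2g2d and Ptgfr values, 0 held a sample past Dixon's 95% limit. With so few values per group, that limit finds only large departures.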

How the results depend on the processing

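Depth limited Ptges and Pla2g2d most, with as few as 1 count in a library. All 4 members stayed higher in SHR in every setting tried. Ptges and Pla2g2d were not past the threshold in right CBs alone, nor was Pla2g2d in the rats whose numbers occur in both strains, with or without a replicate block. The number of genes passing between strains, 2863 in the comparison reported, was 1483 with all 24 libraries, 1270 in left CBs alone and 838 in right CBs alone, where fewer samples entered. Leaving out 1 rat gave 2193 to 2831, counts summed per rat 2041, and voom with libraries correlated within rats 2315. With a replicate block on the rats whose numbers occur in both strains it was 1568, and 1638 for these rats with no replicate block, a setting chosen after seeing the data. The log2 strain difference of Ptges was 2.14 with this replicate block and 1.91 without it, and that of Pla2g2d was 0.88 in right CBs alone; the causes were not tested. Of the eicosanoid genes, 8 in the comparison reported, 3 passed in right CBs alone and 4 in the rats of shared numbers with or without the replicate block, and 7 to 10 with 1 rat left out (the last settings also chosen after seeing the data). Within SHR, 1 gene passed between sides with the rat as a replicate block, where Ptges turned to -0.0859, and Ptgfr turned to 0.00391 with all 24 libraries. Without WKY rat 36 the side difference of Pla2g2d turned to 0.12. Without WKY rat 32 that of Ptges turned to 0.0693 and the interactions of Ptges and Ptgfr to -0.0845 and 0.18. The interaction of Ptgfr also turned to 0.0548 with all 24 libraries and to 0.00510 without SHR rat 36. None of these reversed values was past the threshold (edgeR adjusted p at least 0.973). With 1 rat left out, the side differences ran from -0.15 to -0.05 for Ephx2, -0.30 to 0.12 for Pla2g2d, -0.27 to 0.07 for Ptges and -0.27 to -0.03 for Ptgfr, and the interactions from 0.22 to 0.51, 0.24 to 0.98, -0.08 to 0.83 and -0.37 to 0.18 in that order. The replicate block changed no other call of a member between sides or in the interaction.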

Other observations

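Other eicosanoid genes differed in the right CB of SHR rat 34 as well, in both directions. Ptgir, the prostacyclin receptor gene, was at 1.86 CPM there against 17.5 to 25.3 CPM in the other SHR libraries, and Tbxa2r, the thromboxane receptor gene, at 1.36 against 8.91 to 15.4 CPM. Both were also below every WKY library. Cysltr1, a cysteinyl leukotriene receptor gene, was at 11.4 CPM against 1.35 to 5.22 CPM, and Pla2g12a, a secreted phospholipase A2 gene, at 27.2 against 12.7 to 21.5 CPM. These are values of 1 library, with no test.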
